A study of Arabidopsis thaliana with 6 samples.

Results

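Brassinosteroids are the steroid hormones of plants and promote cell elongation, stem growth and male fertility. They are made from the membrane sterol campesterol by a reductase and a chain of cytochrome P450 enzymes, and are inactivated by further hydroxylation. Several of the synthesis genes are known to be repressed by the hormone itself through the transcription factors BZR1 and BES1. RGA is a DELLA protein, a nuclear repressor of gibberellin responses that reaches DNA through partner transcription factors.

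The genes described here are 10 enzymes of brassinosteroid synthesis and inactivation, out of 27444 protein-coding genes: DWF5, DWF1, DET2, DWF4, CPD, ROT3, CYP90D1, BR6OX1, BR6OX2 and BAS1. They were chosen by gene identifier from the authors' deposited table of genes and peaks. Chromatin immunoprecipitation and sequencing was done on inflorescence apices of Arabidopsis thaliana, all of the Landsberg-erecta accession. The RGA-GFP plants carried RGAp:GFP-rga-delta17, a GFP-tagged RGA that gibberellin does not remove, under the RGA promoter. The labels do not say whether the resident RGA gene was intact or how many transgenic lines were used. Wild type plants, with no GFP tag, were put through the same precipitation with anti-GFP beads. Each group had 3 biological replicates, each of 1 to 2 g of fresh apices. Plants were grown in 16 h of light until they bore about 10 mature flowers, and tissue of both groups was fixed with 2% formaldehyde and 1 micromolar of the crosslinker DSG, with no hormone treatment named in the labels. Apices hold many cell types, and a site bound weakly in all of them cannot be told apart from one bound in a few.

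RGA-GFP libraries held 14644122 to 16745139 tags after duplicates were removed, and wild type libraries 3999159 to 10014730. Duplicates made up 32.4% to 39.8% of the tags in RGA-GFP and 34.9% in wild type library 2, but 63.4% and 62.1% in wild type libraries 1 and 3. RGA-GFP lists held 9343 to 11116 peaks and wild type lists 285 to 972. Depth also set what could be called. Where the local background was that of the whole genome, the weakest peak called had a fold of 1.44 to 1.49 in the RGA-GFP lists. In wild type libraries 1, 2 and 3 it had a fold of 1.75, 1.90 and 2.30. At that background, a weaker wild type site was not detectable.

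Of the 10 genes, 8 had a peak in the authors' pooled list, against 29.7% of protein-coding genes. The same 8 are listed in the authors' deposited table, which lists 46.1% of protein-coding genes. A gene that is not listed counts as having no pooled peak in the shares of all protein-coding genes. The pooled list compares the combined RGA-GFP libraries with the combined wild type libraries, and its fold is over the wild type. The genes without a peak were BR6OX1 and BR6OX2, the pair of closely related genes for the last oxidations of the pathway. The 4 genes of the CYP90 family (DWF4, CPD, ROT3 and CYP90D1) each had one. By pooled fold the order was BAS1 (2.44), DWF5 (2.29), CYP90D1 (2.08), ROT3 (1.89), DWF4 (1.70), DET2 (1.59), CPD (1.55) and DWF1 (1.52). Their median was 1.79, and that of all protein-coding genes with a pooled peak was 1.74. A pooled fold of at least 2 was reached by 3 of the 10, against 5.22% of protein-coding genes, and a pooled −log10 q of at least 10 by 4, against 8.82%. The folds have no replicate error of their own, since the authors combined the libraries before calling.

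In the single lists, the fold of a peak is over the background of its own library, so it is a different ratio from the pooled fold. Counting any peak in the window, 6 of the 8 genes with a window had one in all 3 RGA-GFP lists and in no wild type list. Of the protein-coding genes listed in the table, 59.3% did so, and 6 of 8 is not far from that background. With the authors' replicate threshold of 3 on the −log10 q, DWF1 dropped out of the 6. DWF5 and ROT3 had peaks in all 3 RGA-GFP lists and in wild type lists 1 and 3, the libraries with the most duplicates. The part of duplication in those wild type peaks was not tested. Among all protein-coding genes with a pooled peak, 9.83% had a wild type peak too. For each of the 6 genes the difference between the groups gave p = 0.1 (exact permutation test over libraries, two-sided), the smallest that 3 against 3 can give. For DWF5 and ROT3 it gave p = 1 (the same exact test). No p here can pass 0.05. A gene is listed, and so has a window, only if an RGA-GFP list held a peak there, so presence in RGA-GFP was largely fixed by the listing and these values support nothing.

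**Figure D1:**
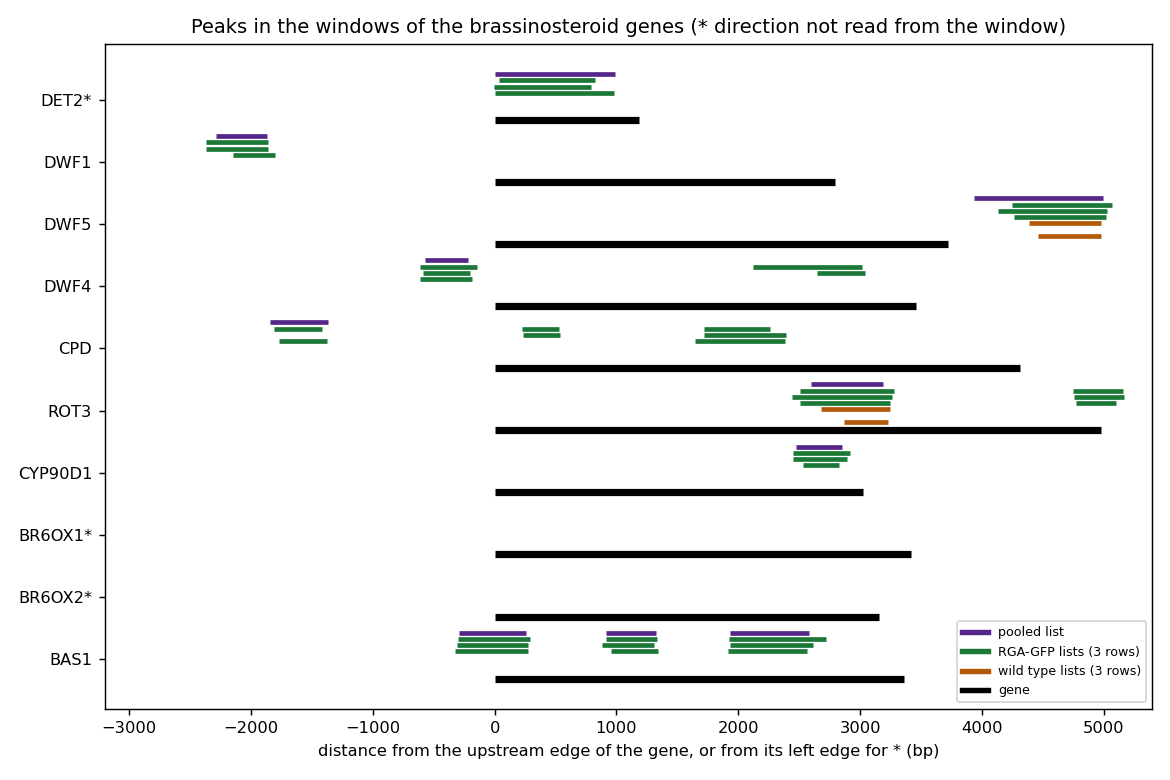
Peaks in the window of each gene, drawn by distance in bp from the upstream edge of the gene (black bar), or from its left edge for the genes marked with a star. From top to bottom, the bars above each gene are the pooled list, the 3 RGA-GFP lists and the 3 wild type lists. Pooled peaks lie upstream at DWF1, DWF4 and CPD, inside the gene at DET2, ROT3 and CYP90D1, between DWF5 and its neighbour, and at 3 places at BAS1, and BR6OX1 and BR6OX2 have none. DWF5 is drawn with the peak downstream, a direction that is not certain. Further RGA-GFP sites at DWF4, CPD and ROT3 have no pooled bar.

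The sterol reductases act first. DWF5 (AT1G50430), a reductase of the sterol ring, had a pooled peak at chromosome 1, 18680659 to 18681716 (TAIR10, as are all positions). Its peaks had folds of 5.77, 4.96 and 4.56 in RGA-GFP lists 1, 2 and 3 (mean 5.10 ± 0.62, SD, n = 3). Wild type lists 1 and 3 gave folds of 2.18 and 2.58 at the same place, and list 2 gave no peak. All 3 RGA-GFP values were thus above both wild type values. The number of tags over the summit was 433, 390 and 360 in RGA-GFP. It was 74 in wild type library 1 (exact Poisson 95% interval 58.1 to 92.9) and 36 in library 3 (25.2 to 49.8), and these intervals cover counting error only. These counts are not scaled for depth, so they overstate the gap between the groups. The genome mean was 48.8, 52.3 and 55.8 tags in RGA-GFP libraries 1, 2 and 3. In wild type libraries 1 and 3 the genome mean was 33.4 and 13.3 tags. Each RGA-GFP peak ranked among the strongest 0.207% to 0.414% of its list.

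The summit was 929 bp from DWF5, on the side where the window reached exactly the authors' downstream limit of 1500 bp. That flank is the only sign here of the direction of DWF5, and the other flank was cut short at 125 bp, so whether the peak lies behind or in front of the gene is not certain. It was 703 bp upstream of SCL3 (AT1G50420), the neighbouring GRAS gene of gibberellin signalling, and SCL3 was the nearest gene to it. The window of SCL3 held it too, beside a stronger pooled peak that gives SCL3 a fold of 2.91 in the authors' deposited table. A peak between neighbours cannot be assigned to either of them from these files.

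DWF1 (AT3G19820), which reduces the sterol side chain to give campesterol, had the weakest pooled peak of the 8 (chromosome 3, 6884181 to 6884599, fold 1.52, −log10 q 3.27). RGA-GFP lists 1, 2 and 3 gave folds of 2.11, 1.87 and 1.50 (mean 1.83 ± 0.31, SD, n = 3) and no wild type list gave a peak. All 3 folds lay below the weakest callable in wild type library 3 at the background of the whole genome. The value of list 3 was among the weakest of its list, which ranked 98.9% of its peaks at or above it, and its −log10 q of 2.37 was under the 3 that the authors asked for. Their table counts 2 replicate lists for DWF1 for that reason. The summit was 2134 bp upstream of DWF1, and 262 bp from NTMC2T5.2 (AT3G19830), whose window also held it.

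DET2 (AT2G38050) encodes the steroid reductase of brassinosteroid synthesis. Its pooled peak (chromosome 2, 15921136 to 15922127, fold 1.59) was 992 bp long and lay over most of the short gene. RGA-GFP lists 1, 2 and 3 gave folds of 2.12, 2.26 and 2.00 (mean 2.13 ± 0.13, SD, n = 3), and no wild type list gave a peak. The values lay close together, and the 3 summits fell within 14 bp. A fold of this size lay below the weakest fold callable in wild type library 3 at the background of the whole genome. The window of DET2 was only 1388 bp long and did not show the direction of the gene.

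DWF4 (AT3G50660) encodes the P450 enzyme of the rate-limiting step, a hydroxylation of the side chain. The summit of its pooled peak was 429 bp in front of the gene (chromosome 3, 18817626 to 18817977, fold 1.70). RGA-GFP lists 1, 2 and 3 gave folds of 2.73, 2.42 and 2.36 (mean 2.50 ± 0.20, SD, n = 3), with no wild type peak. These 3 values were close to each other, and the summits fell within 43 bp. A further site inside DWF4 appeared in RGA-GFP lists 1 and 2 (folds of 1.99 and 1.94) and not in list 3 or the pooled list. There the 2 summits were 451 bp apart.

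CPD (AT5G05690) encodes the P450 oxidase that acts after DWF4. Its pooled summit was 1489 bp in front of the gene (chromosome 5, 1708316 to 1708791, fold 1.55, −log10 q 3.75). RGA-GFP lists 1 and 3 gave folds of 1.66 and 1.74 there, and list 2 gave no peak. Both folds lay below the weakest callable in any wild type library at the background of the whole genome. The site that all 3 lists shared was another one, 46.0% of the way through the gene (chromosome 5, 1704555 to 1705299). There lists 1, 2 and 3 gave folds of 2.35, 2.02 and 1.95, with summits within 7 bp, but the pooled list held no peak. A weaker site near the start of the gene, at 8.01% of its length, appeared in lists 1 and 2 with folds of 1.88 and 1.74. The table counts 3 replicate lists for CPD because any peak in the window counts, and its pooled fold belongs to a site found in only 2 of them.

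ROT3 (AT4G36380) and CYP90D1 (AT3G13730) encode P450 enzymes that act redundantly on the side chain. At ROT3 the pooled peak lay inside the gene, 60.6% of the way along it (chromosome 4, 17189317 to 17189906, fold 1.89). RGA-GFP lists 1, 2 and 3 gave folds of 5.44, 5.45 and 4.49 (mean 5.13 ± 0.55, SD, n = 3). Wild type lists 1 and 3 gave 2.62 and 2.96, and list 2 gave no peak. The RGA-GFP values were all above the wild type values, yet the wild type signal was itself a called peak. The summit held 314, 313 and 254 tags in RGA-GFP, 89 in wild type library 1 (exact Poisson 95% interval 71.5 to 110.0) and 47 in library 3 (34.5 to 62.5). As at DWF5, these counts are not scaled for the depth of the libraries, whose genome means are given there. A second site at the downstream edge of the gene (chromosome 4, 17187343 to 17187762) had folds of 1.82, 1.85 and 1.65 in the 3 RGA-GFP lists. It had no peak in the pooled list or in wild type. These folds lay below the weakest callable in wild type libraries 2 and 3 at the background of the whole genome.

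CYP90D1, the partner of ROT3, had its pooled peak at 89.6% of the gene (chromosome 3, 4498066 to 4498445, fold 2.08, −log10 q 12.8). RGA-GFP lists 1, 2 and 3 gave folds of 3.10, 2.63 and 1.97 (mean 2.57 ± 0.57, SD, n = 3), and no wild type list gave a peak. The spread was wide, with list 1 high and list 3 low, and the summits fell within 100 bp. So both redundant genes had a site in the later part of the gene and none upstream, but the site at ROT3 was also called in wild type and that at CYP90D1 was not. At CYP90D1 the fold of list 3 lay below the weakest callable in wild type library 3 (2.30) at the background of the whole genome. A wild type signal weaker than the RGA-GFP signal could thus have gone uncalled there, and this was not tested.

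BR6OX1 (AT5G38970) and BR6OX2 (AT3G30180) encode the P450 oxidases that complete the active hormones. Neither is listed in the authors' deposited table, and none of the 7 peak lists held a peak within 3000 bp of either gene. The nearest pooled peak began 5819 bp from BR6OX1, with a fold of 1.59, and 8186 bp from BR6OX2, with a fold of 1.97. In the RGA-GFP lists the nearest peaks were 5762 to 5835 bp from BR6OX1 and 6889 to 8189 bp from BR6OX2. The local background at these genes is not given by the peak lists, so the weakest fold that could have been called there is not known.

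BAS1 (AT2G26710), also named CYP734A1, encodes the P450 hydroxylase that inactivates brassinosteroids. It was the one gene of the 10 with more than 1 pooled peak in its window. The first was 70 bp in front of the gene (chromosome 2, 11380174 to 11380722, pooled fold 2.09), with folds of 2.95, 2.53 and 2.38 in RGA-GFP lists 1, 2 and 3 (mean 2.62 ± 0.30, SD, n = 3). The second lay inside the gene, at 32.5% of its length (11381377 to 11381787, pooled fold 1.71), with folds of 1.85, 2.12 and 1.69 (mean 1.88 ± 0.22, SD, n = 3). The third and strongest lay at 68.1% (11382395 to 11383041, pooled fold 2.44, −log10 q 29.9), with folds of 5.81, 5.23 and 4.65 (mean 5.23 ± 0.58, SD, n = 3). No wild type list held a peak at any of the 3. At the second, all RGA-GFP folds lay below the weakest callable in wild type library 3 at the background of the whole genome. The summits of each site fell within 20, 36 and 31 bp. The third site stood well apart from the others of BAS1 in every RGA-GFP list, and no other listed gene shared any of the 3 peaks.

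**Figure D2:**
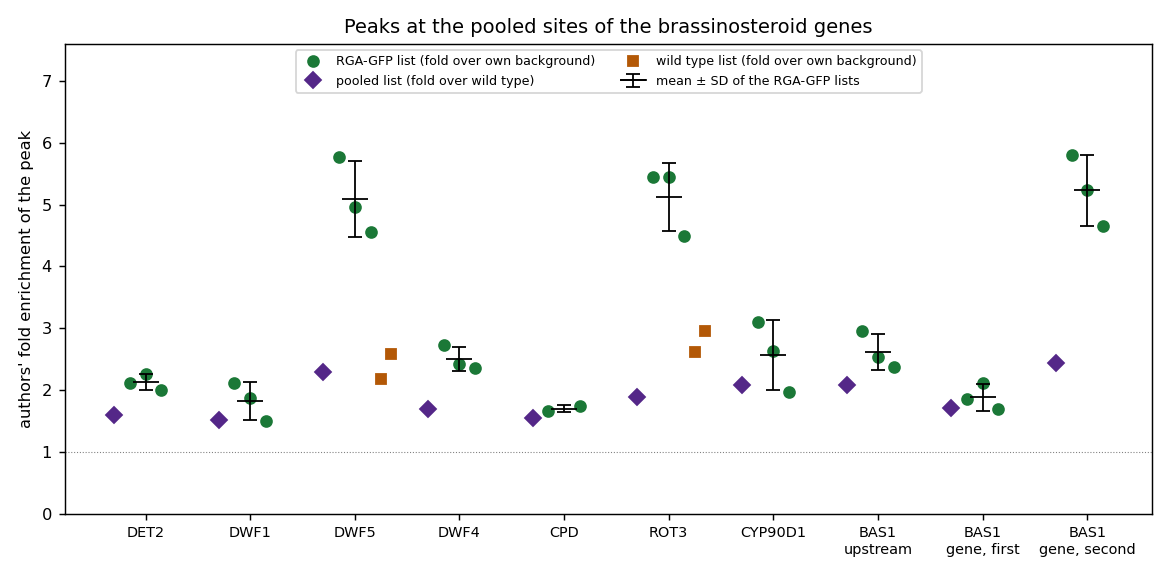
Fold enrichment (vertical axis, the authors' values, no unit) at each pooled site of the genes. Circles are the single RGA-GFP lists with their mean and SD, squares the wild type lists that held a peak, and diamonds the pooled list (at CPD only 2 RGA-GFP lists held the site). DWF5, ROT3 and the second BAS1 site in the gene stand at 4.49 to 5.81 in the RGA-GFP lists, and the other sites at 1.50 to 3.10.

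The strongest sites of BAS1, DWF5 and ROT3 thus had nearly equal folds in the RGA-GFP lists, with means of 5.23, 5.10 and 5.13. They ranked in the top 0.271%, 0.366% and 0.350% by mean replicate fold, among the 6281 pooled peaks that every RGA-GFP list also held. By pooled fold they parted, at the top 1.80%, 3.98% and 23.5% of all 8112 pooled peaks. The pooled fold divides the scaled RGA-GFP signal by the background that the caller took from the combined wild type. That background can be worked out from the pileup and the fold, and for these sites it was 1.41, 1.81 and 1.86 times the mean of the genome. At the other sites of the 8 genes it was 1.00 to 1.29 times that mean, and the median over all pooled peaks was 1.10. The wild type background was therefore also above the median at the BAS1 site, where no wild type peak was called. Whether the raised wild type background bears on the RGA-GFP signal at these sites was not tested.

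**Figure D3:**
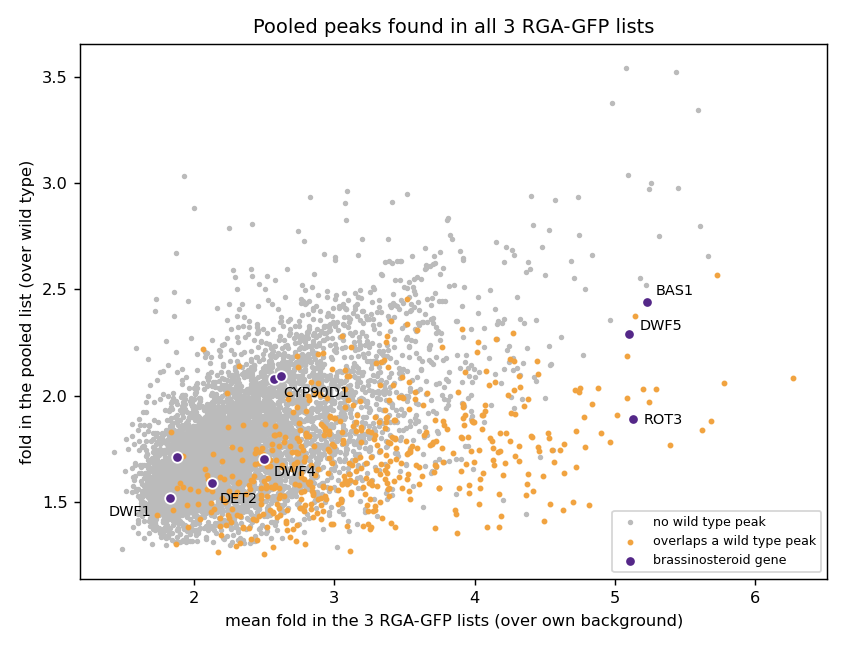
Each point is 1 of the 6281 pooled peaks that every RGA-GFP list also held, with the mean fold over the library's own background on the horizontal axis and the fold over the wild type on the vertical axis (no units). Orange points overlap a wild type peak, and large purple points are sites of the brassinosteroid genes, of which the unlabelled pair belongs to BAS1. ROT3 lies far to the right but low (5.13 and 1.89), BAS1 and DWF5 higher (2.44 and 2.29).

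The mean replicate fold was 2.71 times the pooled fold at ROT3, 2.23 times at DWF5 and 2.14 times at the strongest BAS1 site. The median of this ratio was 1.27 over the 5774 of those peaks that overlap no wild type peak, and 1.84 over the 507 that overlap one. The other sites of the genes found in all 3 lists had ratios of 1.10 to 1.47. BAS1 thus had a ratio above the median of the peaks shared with wild type, without a called wild type peak of its own.

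Around these enzymes, 14 of 26 other genes of sterol synthesis, brassinosteroid inactivation, perception and regulation had a pooled peak (53.8%, against 29.7% of protein-coding genes). The 10 of them that are not listed in the table count here as having none. In sterol synthesis it was 4 of 8, with SMT1, a sterol methyltransferase, strongest (2.17). SMT2 (1.73), CYP51G1 (1.42) and STE1 (1.34) were weaker, and SMT2 and STE1 also had wild type peaks in their windows. Among other inactivation genes it was 2 of 6, UGT73C5, which attaches glucose to the hormone (1.87), and the acyltransferase gene BAT1 (1.63). Wild type lists held nothing in either window. BEN1, a reductase-like gene that lowers brassinosteroid levels, had peaks in all 3 RGA-GFP lists but no pooled peak.

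In perception and signalling, 7 of 10 genes had a pooled peak, and the wild type lists held no peak in those 7 windows, which is near the background of 9.83% given above. They were BKI1, an inhibitor of the receptor (2.40), the receptor BRI1 (2.24), the kinase BSK1 (2.13), the co-receptor BAK1 (2.10), the receptor BRL3 (1.72), the transcription factor BES1 (1.55) and the kinase BIN2 (1.45). Among regulators of synthesis genes, CES, an activator of CPD, had a peak 227 bp upstream (2.06) and TCP1 had no pooled peak. A pooled fold of at least 2 was reached by 6 of the 26, against 5.22% of protein-coding genes. BKI1 shared its strongest peak with AT5G42740, BAK1 with AT4G33440, BAT1 with RR10, UGT73C5 with AT2G36810, CES with MYB116, SMT2 with DRT112 and BES1 with AT1G19340. BIN2 and a site at SMT2 resembled ROT3, DWF5 and BAS1 in one respect. The RGA-GFP folds of BIN2 averaged 3.22 ± 0.41 (SD, n = 3) against a pooled fold of 1.45. Its wild type background was 1.67 times the mean of the genome. At the SMT2 site, 289 bp downstream of the gene, the folds averaged 3.78 ± 0.31 (SD, n = 3) against 1.69. There the wild type background was 2.04 times that mean, and wild type lists 1 and 3 held a peak.

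**Figure D4:**
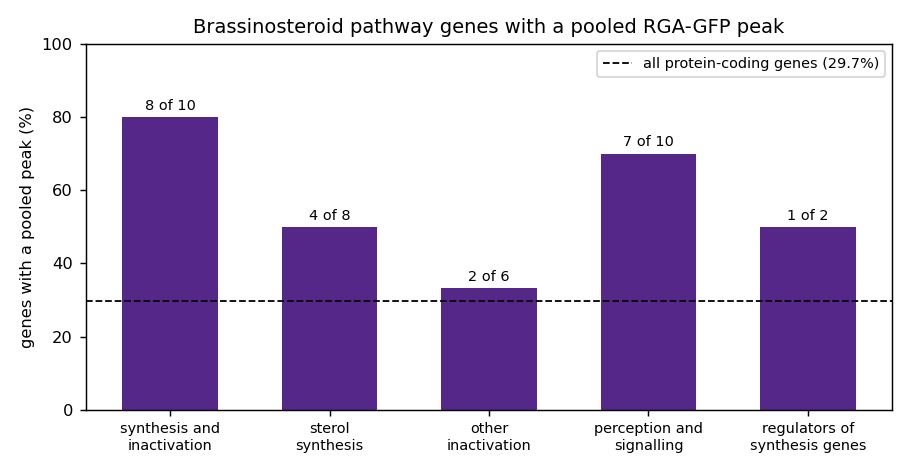
Share of genes with a pooled RGA-GFP peak (vertical axis, percent) in 5 groups of brassinosteroid genes, with counts above the bars and all protein-coding genes as the dashed line at 29.7%. The synthesis and inactivation genes stand at 8 of 10 and perception and signalling at 7 of 10, and the groups are small.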

How the data were processed

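Per the submitters' processing notes, reads were placed on TAIR10 with Bowtie2, and peaks were called with MACS2 2.0.10. Single libraries had no control. Settings per the file headers were a tag extension of 300 bp, 1 tag kept per position, a genome size of 90 Mb and a q threshold of 0.05. The pooled list set the combined RGA-GFP against the combined wild type. The authors' deposited values are the fold (a ratio of summit signal to local background), the pileup signal, the −log10 q and, per the file headers, a count of replicate lists per gene window. The authors' windows take in 3000 bp before and 1500 bp after the coding region, 50 bp of overlap was asked for, and a replicate peak needed a log10 q of 3.

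Peaks sharing 50 bp or more with a window were counted with Python 3.11.15 and pandas 2.3.3, after a test on simulated windows. The pooled fold recomputed this way equalled the table's for each of the 8 listed genes. The wild type background was worked out as (pileup + 1) / fold − 1, and its lowest value in the pooled list, 71.1, equalled the genome mean given by the tag counts. A RefSeq gene table (TAIR10.1) placed summits, and none of its coordinates is printed. A flank longer than 1500 bp was taken as the upstream side of a gene. At DWF5 no flank was longer, and one of exactly 1500 bp was taken as downstream. Libraries were compared by an exact permutation test of peak presence. Named are all 10 genes, listed pathway genes with a pooled peak, and genes sharing such a peak or nearest to it. BEN1 and TCP1 were named after their values were seen. Members and lists were chosen with earlier results of these data known. Promoter motifs and sequences were not analysed here.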

Additional observations from a re-analysis of the deposited data

How the results depend on the processing

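The count of 8 genes with a pooled peak stayed at 8 with an overlap of 1 bp or with the summit in the window. It was 7 with a peak required in all 3 RGA-GFP lists (CPD lost), and 6 without peaks that overlap a wild type peak (DWF5 and ROT3 lost) or by nearest gene to the summit (DWF1 and DWF5 lost). A pooled −log10 q of at least 10 left 4 (DWF5, ROT3, CYP90D1 and BAS1) and a fold of at least 2 left 3 (DWF5, CYP90D1 and BAS1). Leaving out each RGA-GFP replicate in turn, with a peak required in both others, gave 7 to 8. The share of all protein-coding genes was 8.82% at the stricter q and 5.22% at the stricter fold. For the other settings that share was not worked out, so their counts cannot be set against a background. The 14 other pathway genes fell to 7 with the stricter q and 6 with the stricter fold, under alternatives chosen after seeing the data. The pooled fold of each gene was the same under every alternative that left it a peak. The alternatives only keep or drop deposited peaks, so at every gene but BAS1 this outcome was fixed in advance. Leaving out 1 library at a time, the share of RGA-GFP lists minus that of wild type lists with a peak ranged from 0.00 to 0.50 at DWF5 and from 0.00 to 0.50 at ROT3. It was 0.00 without wild type replicate 2, the library with no peak at either gene. With single-list peaks held to a −log10 q of at least 3, this difference fell from 1.00 to 0.67 at DWF1 (exact permutation p = 0.4) and was the same at the other 7 genes.

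With the replicate number as a block, exact permutation within pairs gave p = 0.25 for the 6 genes with a difference of 1.00, the smallest it can give, and p = 1 for DWF5 and ROT3. The labels do not pair the numbers, and over 493 peaks the Pearson correlation of deviations between same-numbered libraries was -0.02, 0.05 and -0.05. That is not a correlation of the signals themselves. Depth limits the wild type lists most, library 3 in particular.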

Other observations

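Of the 26 other pathway genes, 10 are not listed in the authors' deposited table. Yet 4 of them (HYD1, UGT73C6, BSU1 and BZR1, named after their values were seen) had a pooled peak within 3000 bp of the RefSeq gene, and all 4 had peaks there in 3 RGA-GFP lists. BZR1, the transcription factor named above, had 5 pooled peaks in that distance. Neither BR6OX1 nor BR6OX2 had any. Why these 4 genes are not listed was not tested, and the count of 14 leaves them out. The shares of all protein-coding genes rest on the same listing, so they would leave out any such gene too. How many there are was not counted, and those shares may be too low.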
